A study of Mus musculus with 10 samples.

Results

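The replication-dependent histone genes encode the H1, H2A, H2B, H3 and H4 proteins that package newly made DNA. They were taken from the deposited expression table as every gene whose Ensembl identifier maps to a symbol starting with Hist1h, Hist2h, Hist3h or Hist4h, the names of their 4 genomic clusters. By this rule 54 of the 29527 genes in the table were members, and 70 symbols of this kind are known to the name table. The other 16 symbols were not analysed here. Bulk RNA had been sequenced from the dissected pituitary intermediate lobe (IL) of 10 mice at 2 to 3 months of age, of which 4 were wild-type (WT), 3 were p27-/- and 3 were p27-/-;Sox2+/-. Each mouse gave 1 library. The p27-/- mice carried the constitutive targeted allele of Cdkn1b (Cdkn1b tm1Mf) in every cell, and the p27-/-;Sox2+/- mice in addition had 1 functional copy of Sox2, while WT mice carried neither change. Mice of both sexes on a mixed background were used. The study asked how loss of one Sox2 copy alters the response of the IL to loss of p27.

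Histone genes of this kind lack introns and sit side by side in clusters. Their transcription rises as cells enter S phase, and their mRNAs end in a short stem-loop instead of a poly(A) tail. The stem-loop is bound by SLBP, which is needed for processing, translation and decay of the mRNA. P27 (encoded by Cdkn1b) inhibits cyclin-dependent kinases and holds cells before S phase. The IL consists mainly of melanotrophs, endocrine cells that rarely divide in the adult. The libraries were made with the Ovation RNA-seq System V2, whose primers start cDNA both at poly(A) tails and within transcripts, so that mRNAs without a tail can be read.

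The members are spread over 3 chromosomes in GRCm38, with 41 on chromosome 13 (the Hist1 genes), 10 on chromosome 3 (Hist2) and 3 on chromosome 11 (Hist3). By symbol, 5 of the 54 belong to the linker histone H1, 15 to H2A, 15 to H2B, 7 to H3 and 12 to H4. RefSeq names 2 of them, Hist1h2al and Hist3h2bb-ps, as pseudogenes (H2af-ps2 and H2bu1-ps), and both were under the limit for testing described below. The stem-loop was looked for in the GENCODE vM1 transcripts as 16 bases within 100 bases after the stop codon. It needed 6 paired bases on each side, GG at the start, CC at the end and TT at the start of the loop. It was present in 36 of the 51 members with a transcript sequence, 21 to 58 bases after the stop codon. Among the 41 members whose annotated transcript goes on for over 50 bases after the stop codon, 35 had it, and 1 of the 10 with a shorter end did. The letters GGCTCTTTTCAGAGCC occurred in 23 members, and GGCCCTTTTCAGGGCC, which changes the stem and keeps its pairing, in 6. The sites are shown for 5 members described below because the stem-loop is the feature that sets these mRNAs apart, with the stem-loop in capitals.
Hist1h1c: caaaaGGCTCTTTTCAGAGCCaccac
Hist1h1e: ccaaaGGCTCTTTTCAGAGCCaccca
Hist1h2bg: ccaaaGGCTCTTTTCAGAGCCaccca
Hist1h2be: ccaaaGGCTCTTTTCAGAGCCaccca
Hist1h4d: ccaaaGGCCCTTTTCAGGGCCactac
The transcript of Hist1h2be continued for 1789 bases after the stem-loop. The annotated transcript of Hist1h1b ended at its stop codon, so its stem-loop could not be looked for. In the transcript of Hist1h2bc, which goes on for 322 bases after the stop codon, no such sequence was found.

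Promoters were read from RefSeq (GRCm38.p6) as 250 bases before to 50 bases after the start, and 46 of the 54 members had 1 entry. TATAAA, the TATA box, was present on either strand in 60.9% of these 46 promoters and in 13.6% of all 32851. CCAAT was present in 82.6% against 37.4%, and ATTTGCAT, the octamer bound by POU factors, in 21.7% against 1.74%. These shares differed by class. CCAAT was in 100% of the H1, H2A, H2B and H3 promoters and in 3 of the 11 H4 promoters (27.3%). TATAAA was in 1 of the 6 H3 promoters and in 54.5% to 80% of those of each other class. The octamer occurred in 6 of the 13 H2A and 4 of the 11 H2B promoters and in none of H1, H3 or H4. AAACACA, known as the AC box of H1 genes, was present in 4 of the 5 H1 promoters against 7.18% of all promoters. The 150 bases before the start are shown for the 3 members that were higher in p27-/- samples, in the direction of transcription, with these motifs in capitals. An ATTGG in capitals is CCAAT on the other strand.
Hist1h1b, chr13:21780626-21780775, minus strand: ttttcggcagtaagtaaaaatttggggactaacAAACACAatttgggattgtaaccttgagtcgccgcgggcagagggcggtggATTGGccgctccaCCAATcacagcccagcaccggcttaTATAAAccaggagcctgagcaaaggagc
Hist1h1e, chr13:23622559-23622708, minus strand: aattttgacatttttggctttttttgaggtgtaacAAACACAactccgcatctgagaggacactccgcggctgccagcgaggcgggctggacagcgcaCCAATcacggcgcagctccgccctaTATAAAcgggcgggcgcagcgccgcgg
Hist1h2bg, chr13:23571250-23571399, plus strand: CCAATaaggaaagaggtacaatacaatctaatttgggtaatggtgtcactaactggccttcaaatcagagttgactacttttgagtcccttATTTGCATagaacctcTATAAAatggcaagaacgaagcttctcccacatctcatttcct
Both H1 windows held the AC box, CCAAT and TATAAA, and the H2B window held CCAAT, the octamer and TATAAA. A match describes these letters only.

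The deposited values are normalised read counts on a log2 scale, and the transformation that gave them is not stated. Some weakly read members each sat at a nearly constant value of their own, such as Hist2h3b at -1.89 to -1.88 and Hist1h2ad at -1.05 to -0.99. Such values are those of a transformation that draws weakly read genes towards their mean. Fold changes of weakly read genes are then understated, and their small range is not a measure of stable expression. The values are not divided by gene length, so values of different genes do not rank the amounts of their RNA. The table holds no read counts, the depth of each library is unknown, and precision is set by the number of mice. The test was run on the 17268 genes whose mean value reached 3.32, which is 10 before the log2. Of the 54 members, 25 passed this limit, 3 of H1, 6 of H2A, 7 of H2B, 3 of H3 and 6 of H4. Their means ranged from 3.45 for Hist2h3c2, just above the limit, to 10.11 for Hist2h2be. The other 29 ranged from -1.88 to 3.22, with Hist1h2bq just below the limit. The 29 members moved little between samples in the deposited values, with a median range over the 10 samples of 0.19, against 0.79 in the 25. On chromosome 13, 15 of 41 members were tested, on chromosome 3 8 of 10, and on chromosome 11 2 of 3. The counts below cover the 25 and say nothing of the 29.

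**Figure D1:**
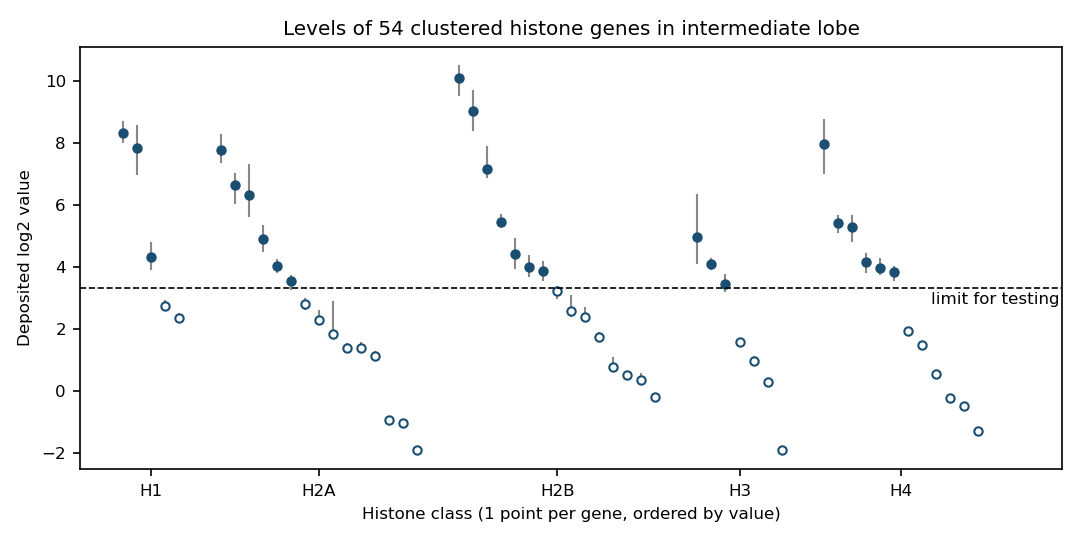
Deposited log2 value (y axis) of each of the 54 clustered histone genes, by histone class (x axis). Points are means of the 10 samples, bars run from the lowest to the highest sample, filled points are the 25 tested genes and the dashed line is the limit at 3.32. Filled points appear in every class, and the open points below the line have short bars.

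The genes that the genotypes alter were read first. Cdkn1b values were between 8.39 and 8.85 in WT, between 8.04 and 8.27 in p27-/- and between 7.73 and 8.10 in p27-/-;Sox2+/- samples, so that every mutant sample lay below every WT sample. Sox2 values were lower in all 3 p27-/-;Sox2+/- samples (6.88 to 7.07) than in the other genotypes (7.08 to 7.75). Of all tested genes, 10.3% lay below WT in every p27-/- sample and 8.01% in every p27-/-;Sox2+/- sample. In the limma fit described below, Cdkn1b was at -0.43 (adjusted p = 0.047) and -0.72 (adjusted p = 0.00854) against WT, in that order. Sox2 in p27-/-;Sox2+/- was at -0.46 against WT (adjusted p = 0.0811) and -0.29 against p27-/- (adjusted p = 0.791), neither under 0.05. Pomc, the hormone precursor of melanotrophs, was between 18.00 and 19.00 in all samples. RNA of the adjoining lobes was also present. The mean deviation of 7 anterior lobe genes from their average was 1.68 in WT replicate 2 and between -0.79 and 0.60 in the other samples, and that of 6 posterior lobe genes ranged from -0.58 to 0.80 without separating the genotypes. In bulk tissue, fewer cells of a type and less RNA per cell cannot be told apart.

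Comparing p27-/- with WT, 3 of the 25 tested histone genes were higher and 0 were lower with an adjusted p-value under 0.05 (limma, Benjamini-Hochberg over the 17268 genes). They were the linker histone genes Hist1h1b and Hist1h1e and the H2B gene Hist1h2bg. Across all tested genes 7.78% passed the threshold, 3.16% higher and 4.62% lower. The median log2 fold change was 0.16 over the 25 and 0.01 over all tested genes. The estimate was positive in 18 of the 25 and negative in 7. In 5 members every p27-/- sample lay above every WT sample and in 0 every sample lay below, where 10.2% and 10.3% of all tested genes did so. An unadjusted p-value under 0.05 was found for 7 members, all with positive estimates, and for 24.1% of all genes.

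Hist1h1b (ENSMUSG00000058773, H1f5 in current naming, chr13:21779832-21780625) encodes linker histone H1.5, which binds the DNA that enters and leaves the nucleosome. Its log2 values in WT samples were 3.95, 4.11, 4.03 and 4.07, in p27-/- samples 4.78, 4.51 and 4.72, and in p27-/-;Sox2+/- samples 4.40, 4.46 and 4.39. The 3 genotypes did not overlap, with p27-/-;Sox2+/- between the other two. Relative to WT, p27-/- samples were higher by 0.63 on the log2 scale (standard error 0.09, adjusted p = 0.00204). The p27-/-;Sox2+/- samples were higher by 0.38 (standard error 0.09, adjusted p = 0.0482). The p27-/- call held in the 17 alternatives in which the gene was tested, with adjusted p-values from 0.00108 to 0.0171. That in p27-/-;Sox2+/- was lost in 13 of them, including each of the 10 in which 1 library was left out (adjusted p from 0.0501 to 0.199). The difference between the mutants was -0.25 (standard error 0.10) and did not pass the threshold (unadjusted p = 0.0251, adjusted p = 0.632 with limma). None of the 75-base stretches of the Hist1h1b transcript occurs in a protein-coding transcript of another gene.

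Hist1h1e (ENSMUSG00000051627, H1f4, chr13:23621777-23622558) encodes linker histone H1.4. Log2 values were 7.79, 7.44, 7.66 and 7.0 in WT, 8.56, 8.07 and 8.31 in p27-/- and 8.02, 7.98 and 7.50 in p27-/-;Sox2+/- samples. Every p27-/- sample was above every sample of the other genotypes, while p27-/-;Sox2+/- overlapped WT. The log2 fold change was 0.84 in p27-/- against WT, a 1.79-fold difference (standard error 0.19, adjusted p = 0.0173). Without p27-/- replicate 1 or replicate 3 it did not pass (adjusted p up to 0.0832). The p27-/-;Sox2+/- estimate was 0.36 against WT (adjusted p = 0.336) and -0.48 against p27-/- (unadjusted p = 0.0293, adjusted p = 0.644). The third tested H1 gene, Hist1h1c, which encodes H1.2, overlapped between the genotypes, with 8.03 to 8.68 in WT, 8.28 to 8.51 in p27-/- and 8.23 to 8.55 in p27-/-;Sox2+/- samples. Its log2 fold changes against WT were 0.10 (standard error 0.14) and 0.11 (standard error 0.14). Hist1h1e shares 15.6% and Hist1h1c 6.66% of their 75-base stretches with other H1 genes.

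**Figure D2:**
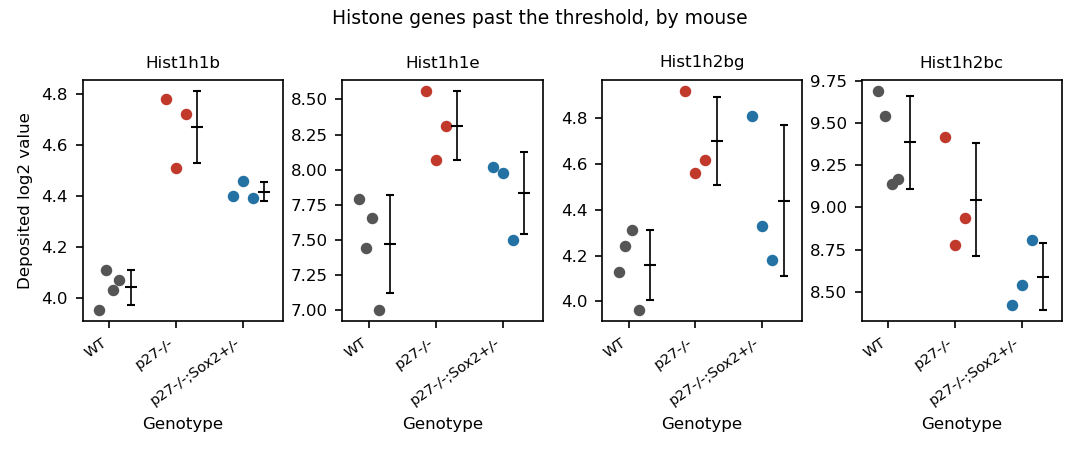
Deposited log2 values (y axis) of the 4 histone genes with an adjusted p under 0.05 in a comparison, by genotype (x axis). Each point is 1 mouse, and the bars beside the points are the mean and SD (n = 4, 3 and 3). Hist1h1b separates the 3 genotypes, Hist1h1e and Hist1h2bg are above WT in every p27-/- mouse, and Hist1h2bc is below WT in every p27-/-;Sox2+/- mouse.

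Hist1h2bg (ENSMUSG00000058385, H2bc8, chr13:23571400-23571863) encodes H2B, the partner of H2A in the nucleosome. It was at 4.13, 4.24, 4.31 and 3.96 in WT, at 4.92, 4.56 and 4.62 in p27-/- and at 4.81, 4.33 and 4.18 in p27-/-;Sox2+/- samples. All p27-/- samples were above all WT samples, and 1 of the p27-/-;Sox2+/- samples reached the p27-/- range. The log2 fold change in p27-/- against WT was 0.54 (standard error 0.15, adjusted p = 0.0394). This call was lost in 8 of the 17 alternatives in which the gene was tested, including 6 of the 10 in which 1 library was left out, with adjusted p-values up to 0.164. For p27-/-;Sox2+/- the estimate was 0.28 (adjusted p = 0.34). Hist1h2bg shares 47.4% of its 75-base stretches with 14 other H2B genes, and the division of reads among such copies is an estimate.

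The remaining H2B genes did not move together. Hist1h2bk had a log2 fold change of 0.36 in p27-/- against WT (standard error 0.11, adjusted p = 0.0503), with WT samples from 3.71 to 4.02 and p27-/- samples from 4.11 to 4.35. It passed with array weights, median centring and quantile normalization, and without WT replicate 1 or p27-/-;Sox2+/- replicate 3. It shares 72.1% of its stretches with other H2B genes and was named, like Hist1h2bb, Hist1h2ak, Hist1h4j, Hist2h2ac and Hist3h2ba, after its values were seen. Hist1h2bb was at 0.27 (adjusted p = 0.129) and Hist3h2ba at 0.16 (adjusted p = 0.437). Negative estimates were found for Hist1h2bc, at -0.34 (adjusted p = 0.233), and Hist1h2be, at -0.32 (adjusted p = 0.268). Hist2h2be, the member with the highest value, was at 0.21 (adjusted p = 0.378).

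With one Sox2 copy also lost, 1 of the 25 tested histone genes was higher than in WT (Hist1h1b) and 1 lower (Hist1h2bc), where 2.71% of all tested genes passed the threshold, 0.828% higher and 1.88% lower. This comparison used the same WT samples as that of p27-/-. The median log2 fold change was 0.11 over the 25 and 0.01 over all genes, with 18 positive and 7 negative estimates. Every p27-/-;Sox2+/- sample was above every WT sample in 1 member and below in 2, where 7.02% and 8.01% of all tested genes did so. An unadjusted p-value under 0.05 was found for 6 members and for 17.8% of all genes.

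Hist1h2bc (ENSMUSG00000018102, H2bc4, chr13:23684199-23692480) encodes H2B from a locus whose RefSeq span of 8282 bases is far longer than its coding sequence. Its log2 values were 9.69, 9.54, 9.14 and 9.17 in WT, 9.42, 8.78 and 8.94 in p27-/- and 8.42, 8.54 and 8.81 in p27-/-;Sox2+/- samples. All p27-/-;Sox2+/- samples lay below all WT samples, and p27-/- overlapped both. The log2 fold change in p27-/-;Sox2+/- against WT was -0.79, 0.577 of the WT level (standard error 0.17, adjusted p = 0.0231). The call was lost without p27-/-;Sox2+/- replicate 1 or replicate 2 (adjusted p up to 0.111). Against p27-/- the log2 fold change was -0.46 (standard error 0.18, unadjusted p = 0.0216, adjusted p = 0.598). Hist1h2bc shares 44.3% of its 75-base stretches with other H2B genes.

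A RefSeq span over 1000 bases was recorded for 7 members, of which 3 H2B genes were tested, Hist1h2bc, Hist1h2be and Hist2h2be. Transcripts that run past the stem-loop can carry a poly(A) tail, but the span does not sort the members by this. No stem-loop was found for Hist1h2bc and Hist2h2be. Annotated transcripts of some members with a shorter span also run on after it, by 839 bases in Hist1h1c and 1487 in Hist3h2a. Hist1h2be (H2bc6) was at 7.33, 7.89, 7.08 and 7.16 in WT, at 7.25, 6.97 and 6.92 in p27-/- and at 6.92, 7.0 and 6.98 in p27-/-;Sox2+/- samples. Like Hist1h2bc, it lay below WT in every p27-/-;Sox2+/- sample, with a log2 fold change of -0.40 that did not pass the threshold (adjusted p = 0.228). Hist2h2be (H2bc21) went the other way, with 9.56, 10, 10.20 and 10.03 in WT, 10.32, 10.08 and 10.06 in p27-/- and 10.17, 10.19 and 10.48 in p27-/-;Sox2+/- samples, which overlapped. Its log2 fold change in p27-/-;Sox2+/- was 0.33 (adjusted p = 0.213), and none of its 75-base stretches occurs in a protein-coding transcript of another gene. Among the 22 tested members with a span of up to 1000 bases, the median log2 fold change was 0.18 in p27-/- and 0.12 in p27-/-;Sox2+/-, with 3 and 1 called higher and 0 called lower.

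**Figure D3:**
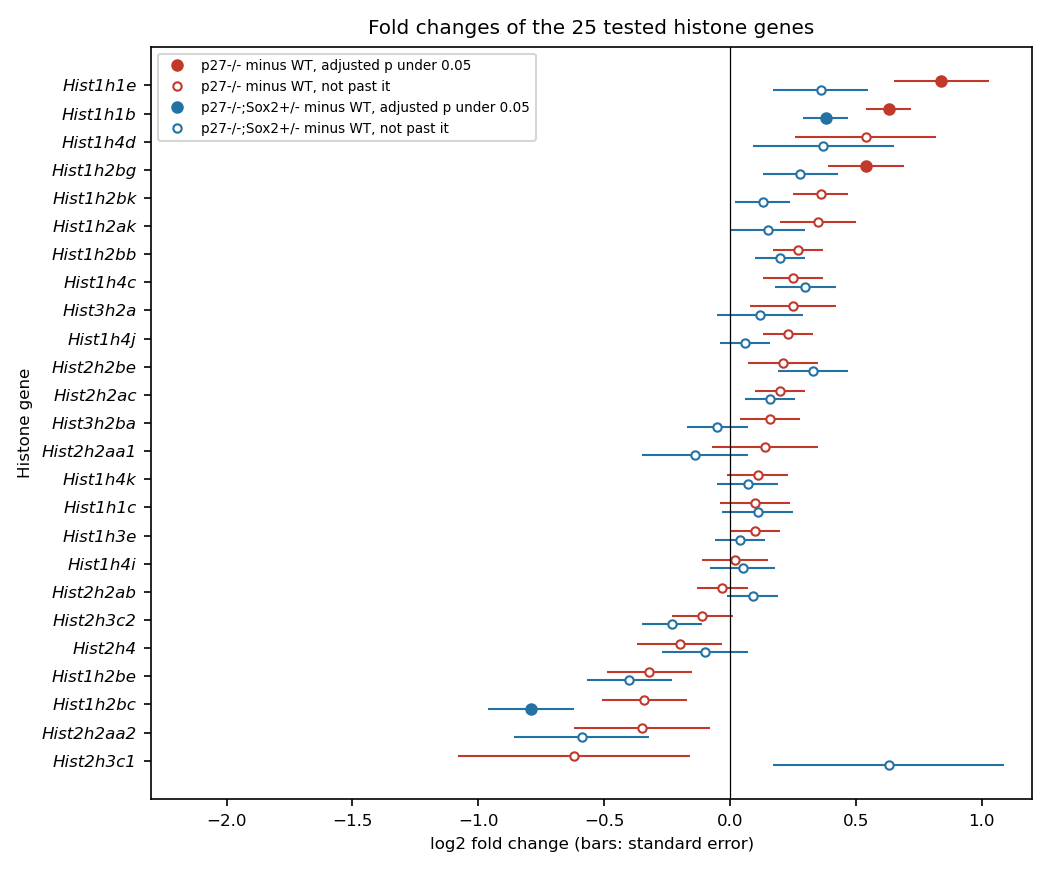
Log2 fold changes against WT (x axis) of the 25 tested histone genes (y axis), in p27-/- (red) and p27-/-;Sox2+/- (blue) samples, with standard errors as bars and filled points for an adjusted p under 0.05. Both mutants are compared with the same WT samples. The genes are ordered by the p27-/- estimate, with Hist1h1e at the top at 0.84 and Hist2h3c1 at the bottom at -0.62.

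Between the mutants, 0 of the 25 histone genes passed the threshold with limma, where 0.145% of all tested genes did, 0.0811% higher and 0.0637% lower. An unadjusted p-value under 0.05 was found for 4 of them, Hist1h1b, Hist1h1e and Hist1h2bc with negative and Hist2h3c1 with a positive estimate, and for 6.65% of all genes. The median log2 fold change was -0.12, with 7 positive and 18 negative estimates, against 0.00 over all genes. All p27-/-;Sox2+/- samples were below all p27-/- samples in 4 members, Hist1h1b, Hist1h1e, Hist3h2ba and Hist1h4j, and above in 0, where 7.75% and 7.51% of all tested genes were. Both comparisons with p27-/- use the same 3 mice. With 3 mice in each group and adjustment over all genes, these estimates were not distinguished from no difference.

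Among the H2A genes 0 of 6 passed in any comparison. The gene with the highest value, Hist3h2a (H2aw), ranged from 7.39 to 7.97 in WT, from 7.73 to 8.25 in p27-/- and from 7.53 to 7.99 in p27-/-;Sox2+/- samples. Hist1h2ak had a log2 fold change of 0.35 in p27-/- against WT (standard error 0.15, adjusted p = 0.154) and Hist2h2ac of 0.20 (standard error 0.10, adjusted p = 0.233), the latter with every p27-/- sample above every WT sample. Of the 6 H2A estimates in p27-/-, 4 were positive and 2 negative, the latter Hist2h2aa2 at -0.35 and Hist2h2ab at -0.03.

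Hist2h2aa1 and Hist2h2aa2 (H2ac18 and H2ac19, on chromosome 3) are near-identical copies, and every 75-base stretch of either occurs in another gene. Hist2h2aa1 was at 6.09, 6.71, 6.95 and 6.79 in WT, at 6.80, 6.52 and 7.01 in p27-/- and at 6.59, 6.07 and 6.84 in p27-/-;Sox2+/- samples. Hist2h2aa2 was at 7.29, 6.70, 6.31 and 6.18 in WT, at 6.27, 6.61 and 5.92 in p27-/- and at 5.87, 6.59 and 5.64 in p27-/-;Sox2+/- samples. In samples such as WT replicate 1 and p27-/-;Sox2+/- replicate 2 the first copy was low and the second high. Neither copy alone can therefore be read as a level of its gene. The log2 of the sum of both on the linear scale varied less, with an SD over the 10 samples of 0.17 against 0.33 and 0.48 for the single copies. The sum averaged 7.68 ± 0.12 (SD) over 4 WT mice, 7.56 ± 0.01 over 3 p27-/- mice and 7.33 ± 0.05 over 3 p27-/-;Sox2+/- mice, and all 3 p27-/-;Sox2+/- samples (7.27, 7.36 and 7.36) were below the lowest of the others (7.52). Of all tested genes, 8.01% had every p27-/-;Sox2+/- sample below WT and 7.75% had every one below p27-/-. The sum was formed after the values were seen and was not tested. It leaves out the other genes that share stretches with these copies. Hist2h3c1 is among them and was at 6.07 and 6.22 in p27-/-;Sox2+/- replicates 2 and 3.

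Among the H3 genes 0 of 3 passed in any comparison. Hist2h3c1 (H3c14, chromosome 3) varied most among samples of one genotype, with 4.28, 5.05, 6.33 and 4.20 in WT, 4.29, 4.15 and 4.60 in p27-/- and 4.51, 6.07 and 6.22 in p27-/-;Sox2+/- samples. Samples above 6 occurred in WT and in p27-/-;Sox2+/-, and all 3 p27-/- samples were below 5. The log2 fold change of 1.25 between the mutants (standard error 0.49) had an unadjusted p of 0.0231 and an adjusted p of 0.605. Its GENCODE transcript shares 28.2% of its stretches with other genes, Hist2h2aa1 next to it on chromosome 3 among them. Hist2h3c2 had no transcript sequence to compare, so stretches shared with it are not in this share. Hist1h3e and Hist2h3c2 had log2 fold changes of 0.10 and -0.11 in p27-/- and of 0.04 and -0.23 in p27-/-;Sox2+/- against WT, none past the threshold.

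Among the H4 genes, all of which encode the same protein, 0 of 6 passed in any comparison. Hist1h4d (H4c4, chr13:23581568-23581969) turned on 1 library. Its log2 values were 8.75, 7.54, 7.05 and 7.44 in WT, 8.17, 8.34 and 8.19 in p27-/- and 8.20, 8.10 and 7.91 in p27-/-;Sox2+/- samples. WT replicate 1 was above all mutant samples, and the other 3 WT samples were below all of them. With all samples, the p27-/- estimate against WT was 0.54 (standard error 0.28, adjusted p = 0.257), and that of p27-/-;Sox2+/- was 0.37 (adjusted p = 0.521). Without WT replicate 1 they were 0.89 (adjusted p = 0.00202) and 0.72 (adjusted p = 0.0109). That library also held the highest WT value of other members, Hist1h1c, Hist2h2aa2 and Hist1h2bk among them. Without it, 5 members passed in p27-/- against WT, Hist1h1b, Hist1h1e, Hist1h2bk, Hist1h4d and Hist1h4j, and Hist1h2bg did not. Over all tested genes the count rose as well, from 1343 with all samples to 1709 without this library. Among all samples WT replicate 1 had the highest mean deviation of 5 macrophage genes (0.50, against -0.33 to 0.10). The same held for 6 fibroblast and mural genes (0.46, against -0.54 to 0.28). The part of these in its histone values was not tested.

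**Figure D4:**
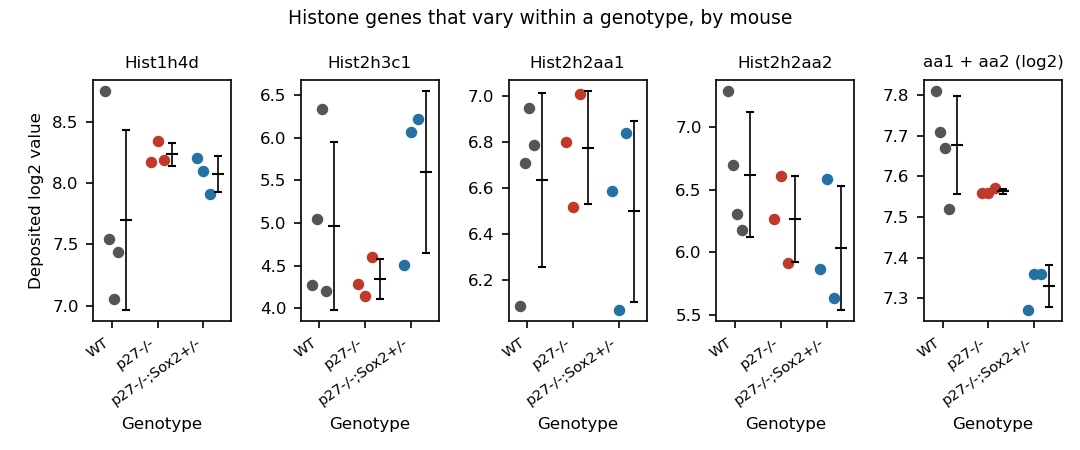
Deposited log2 values (y axis) of histone genes that varied within a genotype, and the log2 of the summed linear values of Hist2h2aa1 and Hist2h2aa2, by genotype (x axis). Each point is 1 mouse, in replicate order from left to right, and the bars are the mean and SD (n = 4, 3 and 3). WT replicate 1 is high for Hist1h4d at 8.75, Hist2h3c1 has samples above 6 in 2 genotypes, and the summed copies vary less than either copy.

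The other H4 genes had smaller estimates. Hist1h4c was at 0.25 (adjusted p = 0.219) in the first mutant and 0.30 (adjusted p = 0.202, and 0.0412 with array weights) in the second, and Hist1h4j at 0.23 in p27-/- (adjusted p = 0.166). Hist1h4i was at 0.02 and 0.05 and Hist2h4 at -0.20 and -0.10, with overlapping samples. Over the 6 genes the median was 0.17 in p27-/- and 0.07 in p27-/-;Sox2+/-.

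Histone variant genes that lie outside the clusters were compared next. Most of them are expressed through the cell cycle, although H2afx mRNA can also end in the stem-loop. Of 11 listed genes 10 had a row and 9 were tested. In p27-/- samples 4 of the 9 were higher than in WT and 0 lower, with a median log2 fold change of 0.39. Of all tested genes, 3.16% were higher and 4.62% lower. H2afz, which encodes H2A.Z, was at 10.49, 10.66, 10.12 and 10.20 in WT, at 11.30, 10.83 and 10.91 in p27-/- and at 10.86, 10.98 and 11.05 in p27-/-;Sox2+/- samples, with no overlap of either mutant with WT. Its log2 fold changes were 0.64 (adjusted p = 0.0141) and 0.60 (adjusted p = 0.0347), in that order of the mutants. H3f3a and H3f3b, which encode the replacement histone H3.3, rose by 0.72 (adjusted p = 0.00425) and 0.49 (adjusted p = 0.00256) in p27-/-. Cenpa, the H3 of centromeres, rose by 0.84 (adjusted p = 0.00149). In p27-/-;Sox2+/- samples 2 of the 9 passed, H2afz and H3f3a (0.57, adjusted p = 0.0247), with H3f3b at 0.28 (adjusted p = 0.0653) and Cenpa at 0.47 (adjusted p = 0.0507). Of all tested genes, 2.71% passed in that comparison. Between the mutants 0 of 9 passed with limma, and 3 had an unadjusted p under 0.05, as did 6.65% of all tested genes.

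Genes that act on histone mRNA and protein were counted in the same way. Of 24 genes for histone transcription and mRNA processing, 2 were higher in p27-/-, Cstf2 (0.34, adjusted p = 0.036), which encodes a cleavage factor subunit, and Ybx1 (0.40, adjusted p = 0.0213), which encodes an mRNA-binding protein. This share of 8.33% is near the 7.78% of all tested genes, and the median was 0.11. Slbp, which encodes the stem-loop binding protein, was at 7.97, 8.31, 7.77 and 8.13 in WT and at 8.43, 8.28 and 8.40 in p27-/- samples, which overlapped, and the difference of 0.33 (standard error 0.12) had an adjusted p of 0.109. Npat and Casp8ap2, coactivators of histone transcription, were at 0.11 and 0.12. Of 24 histone chaperone genes, 4 (16.7%, against 7.78% of all tested genes) were higher in p27-/- and 0 lower, with a median of 0.18. They were Nasp (0.35, adjusted p = 0.0476), a carrier of soluble histones, Anp32e (0.37, adjusted p = 0.0119), which removes H2A.Z, Hjurp (0.42, adjusted p = 0.0126), which deposits CENP-A, and Mcm2 (0.53, adjusted p = 0.00797), a helicase subunit that binds H3 and H4. In p27-/-;Sox2+/- against WT and between the mutants, 0 genes of either list passed with limma, where 2.71% and 0.145% of all tested genes did. At an unadjusted p under 0.05 there were 4 of the processing and 8 of the chaperone genes in the first comparison. There were 0 of each in the second. Of all tested genes, 17.8% and 6.65% were under it in these comparisons.

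Of 26 genes of DNA replication and proliferation, 10 (38.5%, against 7.78% of all tested genes) were higher in p27-/- and 0 lower, with a median of 0.35. Mcm2 belongs to this list and to that of the chaperones. Mki67, a proliferation marker, was between 6.79 and 8.12 in WT, between 9.27 and 9.89 in p27-/- and between 8.44 and 8.89 in p27-/-;Sox2+/- samples. The differences from WT were 2.19 (adjusted p = 0.000396) and 1.36 (adjusted p = 0.0105). Top2a, which untangles replicated DNA, was at 2.13 (adjusted p = 0.000246) and 1.16 (adjusted p = 0.014), and Ccna2, the cyclin of S phase and mitosis, at 0.94 (adjusted p = 0.0107) and 0.35 (adjusted p = 0.352). Against WT, 2 of the 26 (7.69%) passed in p27-/-;Sox2+/-, where 2.71% of all tested genes did. Between the mutants 0 of the 26 passed, where 0.145% of all tested genes did. The mean deviation of the 26 genes was -0.29 to -0.12 in WT, 0.17 to 0.35 in p27-/- and 0.03 to 0.06 in p27-/-;Sox2+/- samples, which do not overlap. The same measure over the 25 clustered histone genes was -0.21 to 0.08, -0.02 to 0.16 and -0.03 to 0.05, which overlap. Over the 3 tested H1 genes it was -0.47 to -0.03, 0.13 to 0.45 and -0.02 to 0.10. These ranges did not overlap, but WT and p27-/-;Sox2+/- samples nearly met, at -0.03 and -0.02. Hist1h1b and Hist1h1e, already called in these data, are 2 of the 3, and Hist1h1c overlapped between the genotypes. The H1 mean is therefore no further evidence about the class.

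**Figure D5:**
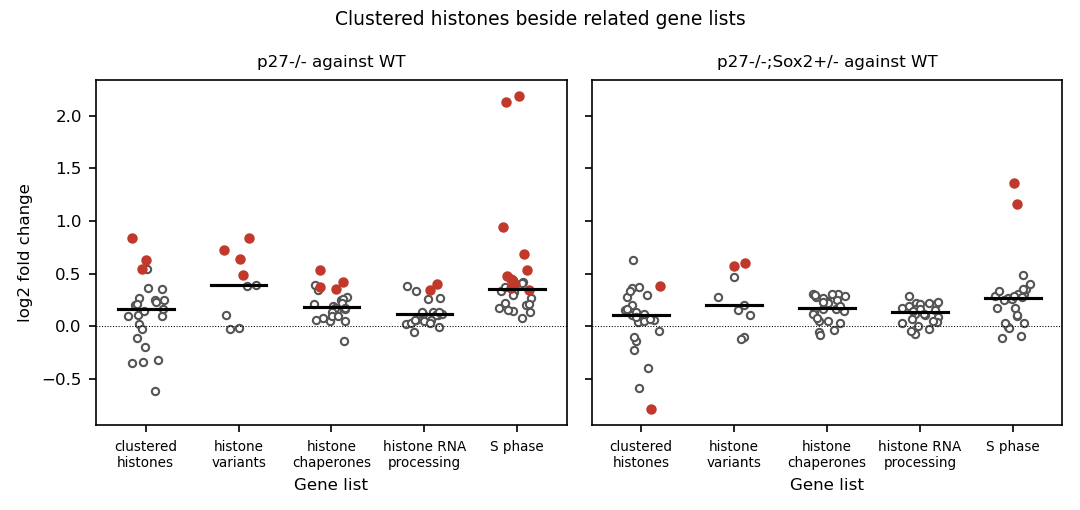
Log2 fold changes against WT (y axis) of the tested genes of 5 lists (x axis), in p27-/- (left) and p27-/-;Sox2+/- samples (right). Points are genes, filled red where the adjusted p is under 0.05, and lines are medians. In p27-/- the median is 0.16 for the 25 clustered histone genes, 0.39 for the histone variants, 0.18 for the chaperones, 0.11 for the processing genes and 0.35 for the S phase genes.

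A few of the listed cell type markers passed the threshold against WT. Of 5 melanotroph genes, 2 were higher in p27-/-, Pcsk2 (0.53, adjusted p = 0.0352), a hormone-processing protease, and 5330437I02Rik (0.77, adjusted p = 0.00161), and 0 of 5 passed in p27-/-;Sox2+/-. Pomc, Pax7 and Tbx19 were at 0.31, 0.23 and 0.06 in p27-/- and did not pass. The mean deviation of all 5 melanotroph genes was -0.28 to 0.08 in WT, 0.05 to 0.33 in p27-/- and -0.09 to 0.01 in p27-/-;Sox2+/- samples. Fshb, an anterior lobe hormone gene, was lower in both mutants (-2.04, adjusted p = 0.028, and -2.27, adjusted p = 0.0294), 1 of 7 anterior lobe genes. Kdr was lower in both (-0.83 and -0.67), 1 of 5 endothelial genes, and Lum was lower in p27-/- (-0.75, adjusted p = 0.05 after rounding) and at -0.78 in p27-/-;Sox2+/- (adjusted p = 0.0742), 1 of 6 fibroblast and mural genes. Of 3 stem cell, 6 posterior lobe, 5 macrophage and 3 red cell genes, 0 passed in either comparison with limma. Over all tested genes, 7.78% passed in p27-/- and 2.71% in p27-/-;Sox2+/- against WT. No listed marker with a row was under the limit for testing. The part of these cell types in the histone values was not tested.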

How the data were processed

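Bulk RNA of dissected IL from 10 mice was measured, with 1 library each. The authors aligned the reads to Ensembl GRCm38 with STAR 2.5.2a, estimated counts per gene with RSEM without regard to strand, normalised them with DESeq2 1.18.1 and deposited log2 values, whose transformation is not given in the sources used here. Reads of overlapping genes on opposite strands cannot be told apart. Groups are the genotypes of the labels. The 3 genotypes were fitted together with limma 3.58.1 in R 4.3.3 (mean-variance trend), over the 17268 genes with a mean of at least 10, with Benjamini-Hochberg adjustment and a threshold of 0.05. The model was tested on simulated data. Gene lists were counted, not tested as sets. Members named are those past the threshold, the 3 with the highest mean in each class, the 3 with the smallest p in each comparison and those nearest to the limit. Of the related lists, genes past the threshold and up to 3 others were eligible. The members and lists were chosen with earlier results of these data known. RefSeq positions and promoters (GRCm38.p6) were found for 54 and 46 members. Stem-loops and shared 75-base stretches came from GENCODE vM1 protein-coding transcripts, used for sequence only. Genes without such a transcript were not searched. Tables and figures were made with Python 3.11.15, pandas 2.3.3, numpy 2.4.6 and matplotlib 3.10.9. The alternatives were quantile normalization, median centring, array weights, a fit of only the genotypes compared, a fit with no trend, no lower limit, a limit of 50, a block for the replicate number and each library left out in turn. Where nothing says otherwise, p-values measure the spread between these mice in the deposited values. For weakly read genes the transformation can narrow this spread as well. How far this reaches Hist1h1b and Hist1h2bg, with means of 4.34 and 4.41, was not tested.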

Additional observations from a re-analysis of the deposited data

Results flagged for a closer look

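Hist2h2ab, an H2A gene just above the limit for testing, had 1 WT sample apart from the others. WT replicate 2 was at 3.31 and the other 3 WT samples were between 3.59 and 3.64, so that the gap was 0.847 of the range of the group, above Dixon's critical value for 4 samples. It was the 1 such gap among 31 measures examined, where 1.55 are expected by chance. The 3 p27-/- samples of this gene were between 3.41 and 3.63 and the 3 p27-/-;Sox2+/- samples between 3.52 and 3.71.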

How the results depend on the processing

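No estimate that passed the threshold changed direction under the alternatives run. The number of members past the threshold in p27-/- against WT was 3, and 1 (Hist1h1e) with a mean of at least 50, where 9 members were tested. It was 4 with array weights, median centring or quantile normalization, each adding Hist1h2bk, and 2 without a limit on low values. With 1 library left out it ranged from 1 to 5, with 1 (Hist1h1b) without p27-/- replicate 1 or 3 and 5 without WT replicate 1. In p27-/-;Sox2+/- against WT it was 2, and 1 (Hist1h2bc) without a limit on low values, with a mean of at least 50, with only the 2 genotypes, or with the replicate block, and 3 with array weights, which added Hist1h4c (adjusted p = 0.0412). With 1 library left out it ranged from 0 to 2, with 0 without p27-/-;Sox2+/- replicate 1 or 2. Between the mutants it was 0, and 1 (Hist2h3c1, adjusted p = 0.0459) with array weights. With no limit on low values, none of the 29 members under it passed, the lowest adjusted p being 0.0667 for Hist1h3c. The replicate numbers did not pair the samples, since deviations of same-numbered samples correlated between -0.24 and 0.18. With the replicate block, 2 members passed in p27-/- against WT. Over all genes, 1343 passed in p27-/- against WT, 831 without a limit, 1181 with a limit of 50 and 807 with 2 genotypes. In that comparison 1764 passed with array weights, 1320 with median centring and 1154 with quantile normalization. The count was 595 with the block and 403 to 1709 with 1 library left out. In p27-/-;Sox2+/- against WT the counts were 468, 312 without a limit, 397 with a limit of 50 and 260 with 2 genotypes. They were 1240 with array weights, 209 with the block and 80 to 658 with 1 library left out. Between the mutants they were 25, and 6 without a limit, 45 with 2 genotypes, 8 without the trend, 283 with array weights, 15 with quantile normalization, 2 with the block and 0 to 41 with 1 library left out. The causes were not tested. The depth of each library is unknown, and the low values of 29 members limit what can be seen in them.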
